A study of Mus musculus with 6 samples.

Results

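Activin and Nodal belong to the transforming growth factor beta family of secreted signals. Both ligands act through type I and type II activin receptors, which phosphorylate SMAD2 and SMAD3, and Nodal needs in addition the membrane-anchored coreceptor that Tdgf1 (Cripto) encodes. The pathway limits itself through secreted antagonists, the Lefty proteins against Nodal and follistatin against activin, and the Lefty genes are textbook transcriptional targets of the same signal in embryonic stem cells. The 9 genes described here are the activin beta A and beta B subunit genes Inhba and Inhbb, the inhibin alpha subunit gene Inha, Nodal, Tdgf1, the antagonist genes Lefty1, Lefty2 and Fst, and Skil, which encodes the SMAD corepressor SnoN. They were chosen by name, with earlier results of these data known. Each had 1 probe set with no other gene symbol, and they are 9 of 19937 genes measured.

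The cells were mouse embryonic stem cells, in 3 control arrays and 3 arrays of cells with siRNA knockdown of Trim71, the gene of a TRIM-NHL protein that binds mRNAs. Knockdown cells received a pool of 3 siRNAs against Trim71 by lipid transfection and were collected 72 h later. The sample records list the same 72 h and 3 siRNAs for the control arrays. The control arrays carry a wild-type genotype label and are called parental, while the growth protocol names a non-targeting siRNA as negative control. Whether the control cells were transfected therefore cannot be told from the labels. If they were not, effects of transfection and of the Trim71 knockdown cannot be told apart. No strain, line, clone or passage is named, and the labels do not say that the replicates were separate cultures, so the p-values measure the spread between these arrays, which may be technical. Values are log2 expression on Affymetrix arrays.

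Trim71 itself read 10.48, 10.50 and 10.51 on the control arrays and 9.00, 8.95 and 8.98 on the knockdown arrays, so every knockdown array matched its label. Pluripotency markers were bright on all arrays, with means of 9.89 to 12.96 for 10 genes in the controls, whereas 10 fibroblast markers read 3.34 to 7.07, 10 markers of extraembryonic endoderm 4.27 to 7.22 and 9 markers of mesoderm and primitive streak 5.06 to 7.44. Probe sets differ in brightness for the same amount of transcript, so these ranges are no ranking of transcripts, and the values carry no detection call. Knockdown array 3 stood apart, with an upper quartile of 8.42 against 8.32 to 8.35 on the other 5 arrays. Results that depend on it are given with and without it. At an adjusted p under 0.05 in limma, 675 genes were higher and 428 lower in the knockdown, and the split depended on scaling, with 779 and 763 after a repeated quantile normalization and 527 and 616 with arrays centred on their medians.

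The upstream sequences of 3 of these genes are shown. They set the activin subunit gene that rose, Inhbb, beside its paralog Inhba. They also show the coreceptor gene Tdgf1, the only one of the 5 genes with a window that held letters of the FOXH1 motif. Each sequence is the 250 bases before the annotated start, from RefSeq on GRCm38.p6, written 5′ to 3′ on the strand of the gene. Windows were found for 5 of the 9 genes. None was found for Lefty1, Lefty2, Fst or Skil, so these were not searched for motifs. The arrays do not measure these sequences. Capitals mark matches, on either strand, to AATNNACA (the core bound by FOXH1, the DNA-binding partner of SMAD2), to CAGAC (a SMAD-binding box) or to GGGCGG (a GC box).
Inhbb, chr1:119422249-119422498, minus strand: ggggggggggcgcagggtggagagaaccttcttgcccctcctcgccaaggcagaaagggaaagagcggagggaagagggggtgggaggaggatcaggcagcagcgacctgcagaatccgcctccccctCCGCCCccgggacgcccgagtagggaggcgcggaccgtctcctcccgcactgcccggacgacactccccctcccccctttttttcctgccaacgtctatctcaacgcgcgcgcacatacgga
Inhba, chr13:16011601-16011850, plus strand: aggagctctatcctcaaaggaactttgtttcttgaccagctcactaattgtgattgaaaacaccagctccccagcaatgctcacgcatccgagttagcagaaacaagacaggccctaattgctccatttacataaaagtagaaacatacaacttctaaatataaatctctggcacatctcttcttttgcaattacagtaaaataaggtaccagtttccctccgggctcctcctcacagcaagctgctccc
Tdgf1, chr9:110946159-110946408, minus strand: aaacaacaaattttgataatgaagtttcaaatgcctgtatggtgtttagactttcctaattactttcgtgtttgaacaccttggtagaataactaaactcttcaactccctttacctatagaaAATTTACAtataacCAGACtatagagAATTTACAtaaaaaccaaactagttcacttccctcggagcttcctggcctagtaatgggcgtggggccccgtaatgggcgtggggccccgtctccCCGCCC
The Inhbb window was 68.0% G or C and held 1 GC box, while the Inhba window was 43.2% G or C and held none of the 3 motifs. The median over all 32851 windows was 52.4% G or C. The Tdgf1 window held 2 FOXH1 matches, 1 SMAD match and 1 GC box, which did not overlap each other. The Nodal window held none of the 3 motifs, and the Inha window held 1 SMAD match. Such matches are common, since 10.9% of all windows held the FOXH1 letters, 42.2% the SMAD letters and 32.7% a GC box. A match is a description of these letters and does not show a site in use.

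Among the 9 genes, Inhbb rose and Lefty1 fell after the knockdown. Inhbb, the beta B subunit from which activin B is made, increased 1.62-fold, and Lefty1, a secreted inhibitor of Nodal, dropped to 57.4% of its control level. Lefty2, the close paralog of Lefty1, had a lower mean on the knockdown arrays but missed the threshold. The ligand gene Nodal, its coreceptor gene Tdgf1, the inhibin alpha gene Inha and the follistatin gene Fst differed by at most 1.07-fold between the group means. The 2 calls, 1 higher and 1 lower, stand against a background of 5.53% of all genes called, 3.39% higher and 2.15% lower. The median log2 fold change of the 9 genes was 0.01 and that of all 19937 genes 0.00480, while the median of the absolute changes was 0.16 for the 9 genes and 0.07 for all genes.

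**Figure D1:**
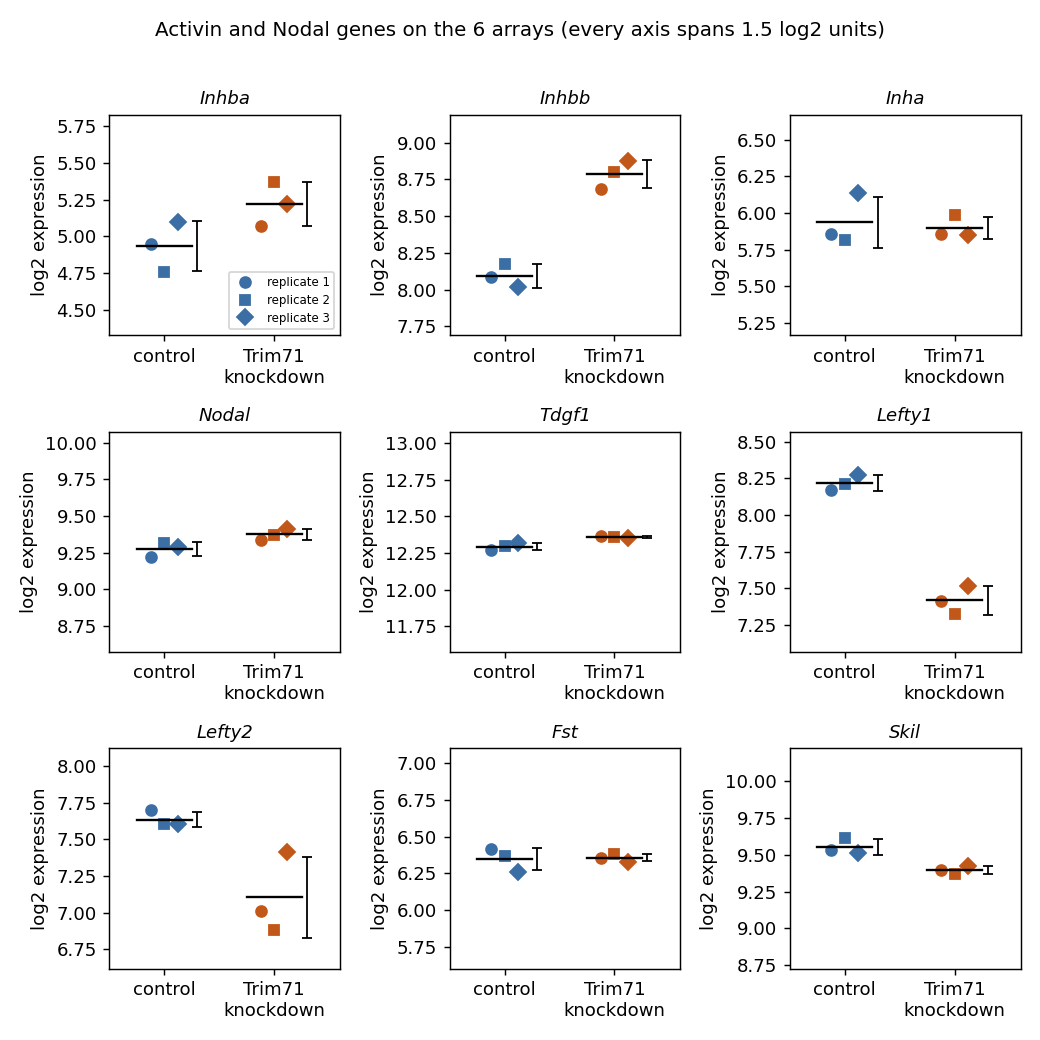
Log2 expression of the 9 genes on each array, with 3 control arrays in blue and 3 Trim71 knockdown arrays in orange; symbols mark the replicate number, lines the group mean and bars the SD. Every vertical axis spans 1.5 log2 units, so panels can be compared by eye: Inhbb moved up from about 8.09 to 8.79, Lefty1 down from 8.22 to 7.42, and Lefty2 on knockdown array 3 (7.41) lay between the controls and the other knockdown arrays.

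The activin subunits were taken first. Inhbb read 8.09, 8.18 and 8.02 on control arrays 1 to 3 and 8.68, 8.80 and 8.87 on knockdown arrays 1 to 3. All knockdown values lay above all control values, and the gap between the groups was wider than the spread within either. The log2 fold change was 0.69 ± 0.068 (SE, n = 3 per group), with an adjusted p of 0.00296 in limma, and the knockdown level was 162% of control with a 95% confidence interval of 145 to 181%. By log2 fold change Inhbb ranked 31 of 19937 genes from the top. Inhbb has been named among transcripts targeted by Trim71, and such lists may draw on these arrays, so its direction here is not independent evidence.

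Inhba encodes the beta A subunit, which forms activin A. It read 4.95, 4.76 and 5.10 on the control arrays and 5.07, 5.37 and 5.22 on the knockdown arrays. The groups overlapped, because knockdown array 1 lay below control array 3. The log2 fold change was 0.28 ± 0.11 (SE, n = 3 per group) with an unadjusted p of 0.0279 in limma, and it did not pass after adjustment over all genes (adjusted p = 0.192 in limma). The Inhba probe set lay below the median of all probe sets.

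The change of Inhbb exceeded that of Inhba by 0.41 on the log2 scale when the genes were set against each other within each array. That within-array difference did not overlap between the groups, but only narrowly, at 3.42 on control array 2 and 3.43 on knockdown array 2. An exact two-sided permutation test gave p = 0.1, and groups of 3 cannot give a lower one. With an array left out, a step added after the data were seen, the excess ranged from 0.29 (without control array 3) to 0.54 (without control array 2). Inhba was much dimmer than Inhbb, and whether brightness shaped this difference was not tested. Inha encodes the alpha subunit, which pairs with a beta subunit to make inhibin, an antagonist of activin. It read 5.86, 5.82 and 6.14 on the control arrays and 5.86, 5.99 and 5.85 on the knockdown arrays, and the groups overlapped throughout. Its log2 fold change was −0.04 ± 0.090 (SE, n = 3 per group), and the 95% confidence interval reached from a 1.19-fold lower to a 1.13-fold higher level. Like Inhba, Inha lay below the median of all probe sets.

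Nodal, the ligand itself, read 9.22, 9.32 and 9.29 on the control arrays and 9.34, 9.37 and 9.41 on the knockdown arrays. The knockdown values all lay above the controls, but the closest control and knockdown values lay nearer to each other than the arrays within a group did. The log2 fold change of 0.10 ± 0.050 (SE, n = 3 per group) did not pass (adjusted p = 0.350 in limma), and its interval ended at a 1.16-fold higher level. Tdgf1, the coreceptor, read 12.27, 12.30 and 12.32 on the control arrays and 12.37, 12.36 and 12.35 on the knockdown arrays. These groups also did not overlap, yet the log2 fold change was only 0.07 ± 0.044 (SE, n = 3 per group; adjusted p = 0.497 in limma). The interval for Tdgf1 ended at a 1.12-fold higher level. For neither gene does the missed threshold show that the level stayed the same.

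Lefty1 read 8.17, 8.21 and 8.27 on the control arrays and 7.41, 7.32 and 7.52 on the knockdown arrays. Every knockdown array lay below every control array, by several times the spread within a group. The log2 fold change was −0.80 ± 0.063 (SE, n = 3 per group), with an adjusted p of 0.00183 in limma and a knockdown level of 57.4% of control (95% confidence interval 51.9 to 63.6%). Only 10 genes of 19937, Trim71 among them, had a lower log2 fold change. In RNA from whole cultures, fewer cells that transcribe a gene and less RNA per cell cannot be told apart.

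Lefty2 read 7.70, 7.60 and 7.60 on the control arrays and 7.01, 6.88 and 7.41 on the knockdown arrays. The groups did not overlap, and the knockdown arrays were spread far more widely, with an SD of 0.28 against 0.054 in the controls. The log2 fold change was −0.53 ± 0.13 (SE, n = 3 per group), an estimated level of 69.2% of control (95% confidence interval 56.6 to 84.7%), and it narrowly missed the threshold (adjusted p = 0.0542 in limma). Without knockdown array 3, the array that stood apart, the log2 fold change was −0.68 and the adjusted p 0.00542 in limma. With any other array left out in turn, the adjusted p of Lefty2 lay between 0.134 and 0.185.

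Lefty1 and Lefty2 are close paralogs, both on chromosome 1 in the RefSeq table. Probe sequences were not used here, so how far the probe sets of the pair read each other's transcript was not tested. Within each array, the signal of Lefty1 minus that of Lefty2 was 0.58 ± 0.10 (SD, n = 3) in the controls and 0.31 ± 0.18 (SD, n = 3) in the knockdown. This within-array difference shifted by −0.27, with p = 0.1 in the exact two-sided permutation test, again the lowest that it can reach. Knockdown array 3 carried much of the shift, which was −0.16 without that array, a value added after the data were seen. The p stayed at 0.1 after adjustment over the 2 paralog pairs compared.

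Fst encodes follistatin, which binds activin and keeps it from its receptors. It read 6.41, 6.37 and 6.26 on the control arrays and 6.36, 6.38 and 6.33 on the knockdown arrays, with the knockdown values inside the control range. Its log2 fold change was 0.01 ± 0.055 (SE, n = 3 per group; adjusted p = 0.965 in limma), and the interval bounded a change at 1.10-fold higher or 1.09-fold lower. Skil, whose product SnoN holds SMAD target genes in check and which the signal itself can induce, read 9.53, 9.61 and 9.51 on the control arrays and 9.40, 9.37 and 9.42 on the knockdown arrays. The groups did not overlap, with every knockdown value below every control value. The log2 fold change was small, at −0.16 ± 0.050 (SE, n = 3 per group), and did not pass (unadjusted p = 0.0145, adjusted p = 0.133 in limma).

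**Figure D2:**
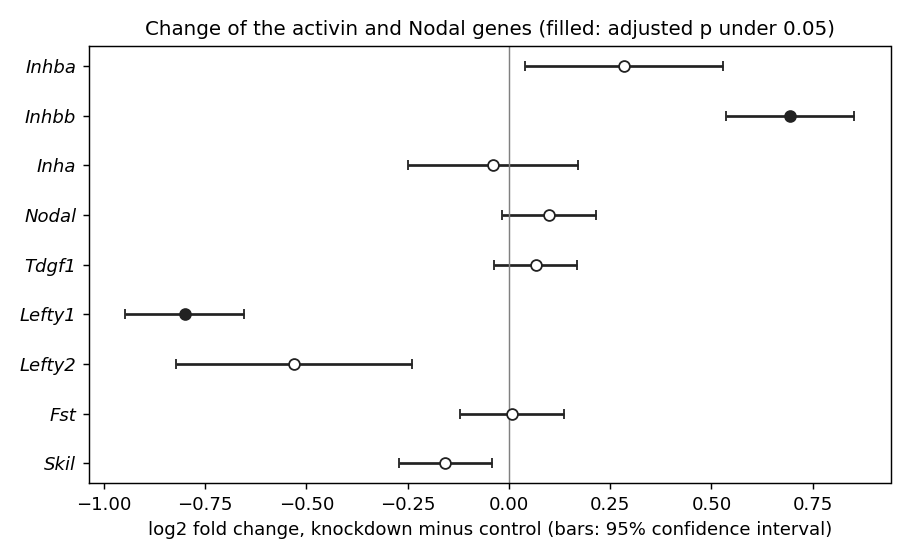
Log2 fold change of each of the 9 genes, knockdown minus control, from limma on 3 against 3 arrays; bars are 95% confidence intervals and filled points have an adjusted p under 0.05. Inhbb (0.69) and Lefty1 (−0.80) are filled, Lefty2 (−0.53) is open with the widest interval, and the intervals of Inha, Nodal, Tdgf1 and Fst include 0.

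Across the list, control and knockdown arrays were fully separated for 6 of the 9 genes, against 25.5% of all genes. Knockdown was higher for 3 of them (Inhbb, Nodal and Tdgf1) and lower for the other 3 (Lefty1, Lefty2 and Skil), against backgrounds of 14.7% and 10.8%. At an unadjusted p under 0.05 in limma the count was 2 higher and 3 lower. Of all 19937 genes, 2184 were higher and 1610 lower at that limit, 19.0% with both directions counted together. The 9 genes share the same arrays and were chosen with earlier results known, so these counts describe the list and are no test of it.

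**Figure D3:**
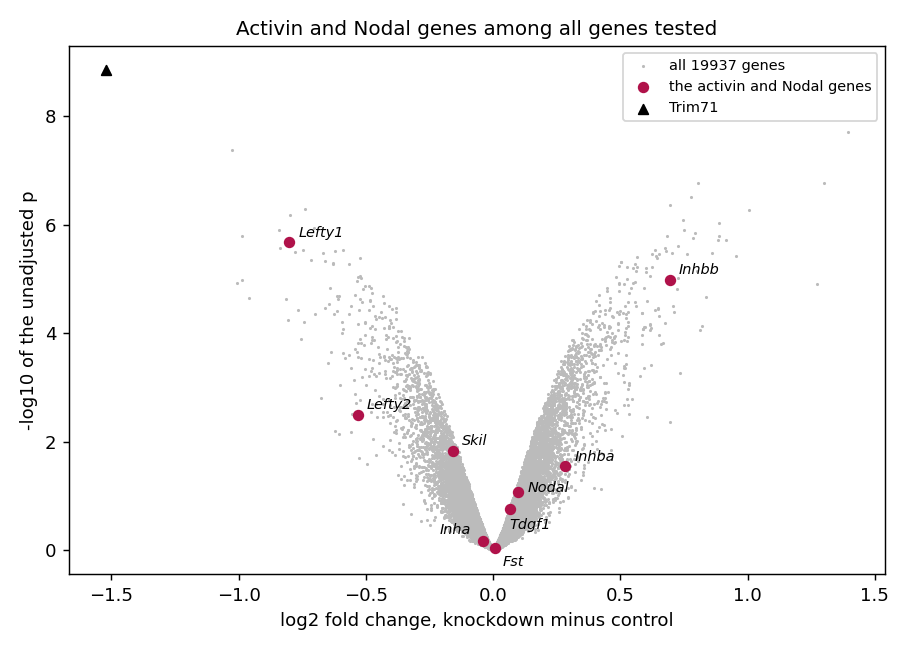
Each grey point is 1 of 19937 genes, with the log2 fold change (knockdown minus control) on the horizontal axis and −log10 of the unadjusted limma p on the vertical axis; the 9 genes are red and Trim71 is the black triangle. Lefty1 (−0.80) and Inhbb (0.69) lie out in the arms of the cloud, Lefty2 sits lower at −0.53, and the other 6 genes lie between −0.16 and 0.28.

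The genes whose 6 array values followed the called members most closely were sought among 17501 named genes, by the root mean square difference after each gene was centred on its control mean. For Inhbb these were Erbb3, a receptor tyrosine kinase gene, at a difference of 0.040 log2 units, Gprc5b, an orphan receptor gene, at 0.041, and Xirp2, an actin-binding protein gene, at 0.043. Their log2 fold changes were 0.68, 0.73 and 0.68. For Lefty1 they were Mmd at 0.048, Wfdc2, a secreted WAP-domain protein gene, at 0.050 and Atxn7l1 at 0.051, with log2 fold changes of −0.84, −0.84 and −0.75. Likeness over 6 arrays in 2 groups mostly records a change of similar size, and carries no p.

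The rest of the pathway was covered by lists of 59 further genes, of which 55 were measured with a probe set of their own. Of these 55, 1 rose (Ldlrad4) and 2 fell (Pcsk6 and Bambi), against 3.39% of all genes called higher and 2.15% lower. At an unadjusted p under 0.05 in limma 6 were higher and 10 lower. Of all 19937 genes, 2184 were higher and 1610 lower at that limit, 19.0% with both directions counted together. The groups did not overlap for 7 of the 55 with knockdown higher and 12 with knockdown lower, against 14.7% and 10.8% of all genes. These counts describe the lists and are no test of them. The median log2 fold change of the 55 genes was −0.01. The largest change was that of Ldlrad4, which encodes a membrane protein that keeps receptor-regulated SMADs from the receptor. Ldlrad4 read 7.58, 7.73 and 7.66 on the control arrays and 8.17, 8.24 and 8.23 on the knockdown arrays, a log2 fold change of 0.56 ± 0.056 (SE, n = 3 per group; adjusted p = 0.00322 in limma), and it was called with any array left out.

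Pcsk6 encodes a proprotein convertase that cleaves precursors of Nodal and Lefty. It read 9.32, 9.43 and 9.38 on the control arrays and 9.02, 9.01 and 9.08 on the knockdown arrays, without overlap. Its log2 fold change was −0.34 ± 0.052 (SE, n = 3 per group; adjusted p = 0.0138 in limma), but leaving out control array 2 gave an adjusted p of 0.0729, control array 3 one of 0.0609 and knockdown array 2 one of 0.0634. Bambi, a decoy receptor without a kinase domain, read 7.95, 8.08 and 8.02 on the control arrays and 7.79, 7.53 and 7.70 on the knockdown arrays. Its log2 fold change of −0.34 ± 0.075 (SE, n = 3 per group; adjusted p = 0.0427 in limma) had the highest adjusted p of the 3 calls. The adjusted p of Bambi was 0.104, 0.155 and 0.133 without control arrays 1, 2 and 3, and 0.108 and 0.0627 without knockdown arrays 2 and 3.

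By role, none of 8 other ligand genes was called, with 1 higher and 1 lower at an unadjusted p under 0.05 in limma. Tgfb1 was at 0.22 (adjusted p = 0.0575) and Gdf11 at −0.13 (adjusted p = 0.208). Of 9 other extracellular antagonists and ligand-binding proteins, 1 fell, Bambi, while Fstl3, a follistatin-like activin antagonist gene, was at 0.41 (adjusted p = 0.0822) and the latency-binding protein gene Ltbp1 at −0.20 (adjusted p = 0.0913). Of 4 convertase genes 1 fell, Pcsk6, with Pcsk5 at 0.12 and Furin at −0.08.

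None of 8 receptor and coreceptor genes was called, with 1 higher and 1 lower at an unadjusted p under 0.05 in limma. Acvr1b, a type I receptor for activin and Nodal, was at 0.15 (adjusted p = 0.246). Acvr1, a type I receptor better known for BMP signals, was at −0.16 (adjusted p = 0.227). Of 17 SMADs, partners and SMAD inhibitors, 1 rose, Ldlrad4. Smad3, a receptor-regulated SMAD, was at 0.27 (adjusted p = 0.0514), and Ppm1a, a phosphatase that acts on SMAD2 and SMAD3, was at −0.18 (adjusted p = 0.0850). Foxh1, chosen after its values were seen, read 8.79, 8.83 and 8.78 on the control arrays and 8.35, 8.47 and 8.69 on the knockdown arrays, with a log2 fold change of −0.30 (adjusted p = 0.0988 in limma). As for Lefty2, knockdown array 3 lay nearest to the controls. Leaving out that array moved the log2 fold change of Foxh1 to −0.39 (adjusted p = 0.0147 in limma). Foxh1 missed the threshold when any other array was dropped instead, and its adjusted p then ranged from 0.189 to 0.263. Other ways of fitting Foxh1 are given at the end.

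Of 14 measured response genes of Nodal and SMAD2, 5 of which also stand in another of these lists, none was called, with 1 higher and 3 lower at an unadjusted p under 0.05 in limma. Ltbp1 and Cer1, the gene of a secreted Nodal antagonist, came nearest, Cer1 at −0.23 (adjusted p = 0.124). The median of these 14 was 0.01. Most of them are genes of the primitive streak or endoderm.

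**Figure D4:**
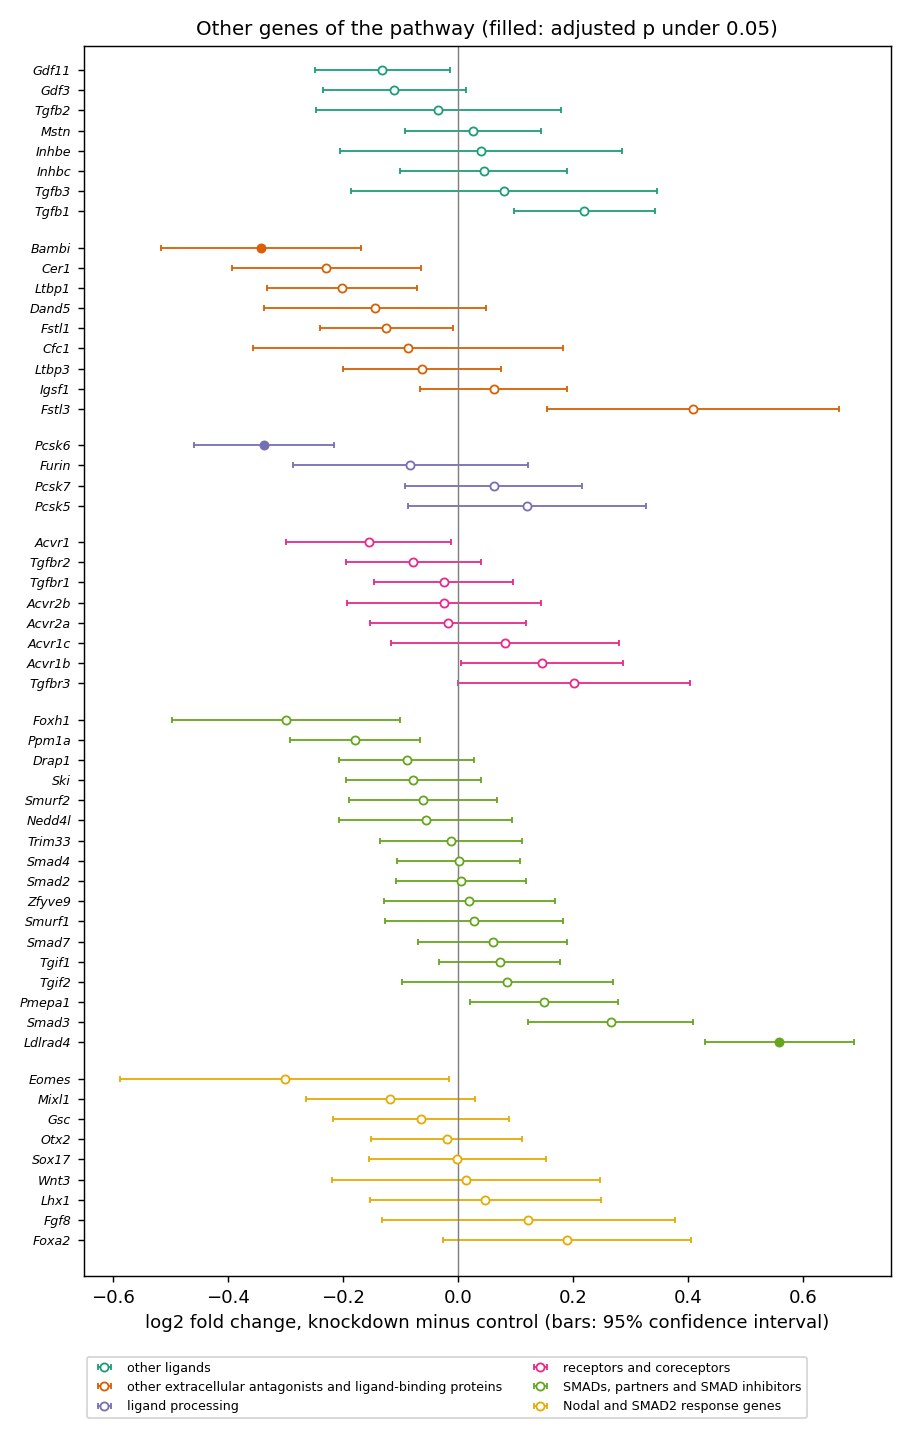
Log2 fold change, knockdown minus control, of the 55 other measured pathway genes from limma on 3 against 3 arrays, coloured by list; bars are 95% confidence intervals, filled points have an adjusted p under 0.05, and a gene in several lists is drawn in the first. The filled points are Ldlrad4 (0.56), Bambi (−0.34) and Pcsk6 (−0.34), and all open points lie between −0.30 and 0.41.

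Marker genes of cell identity were set beside these results. None of the fibroblast, endoderm or mesoderm and streak markers was called, with 0, 0 and 2 at an unadjusted p under 0.05 in limma, against 19.0% of all genes. The summed log2 levels of the 10 endoderm markers were 59.54 to 60.37 on the control arrays and 59.33 to 59.97 on the knockdown arrays, and those of the 9 mesoderm and streak markers 54.68 to 55.16 and 54.14 to 54.76. Those of the 10 fibroblast markers were 55.89 to 57.06 and 55.12 to 57.34, so all 3 lists overlapped between the groups. The summed levels of the 10 pluripotency markers did not overlap, at 113.98 to 114.36 on the control arrays and 115.06 to 115.67 on the knockdown arrays. Of these 10, 2 rose, against 3.39% of all genes called higher, Fgf4 at 0.31 (adjusted p = 0.0231) and Zfp42 at 0.25 (adjusted p = 0.0232). At an unadjusted p under 0.05 in limma 5 of the 10 were higher and 0 lower, and 6 of the 10 were higher on every knockdown array than on any control array, against 14.7% of all genes. Zfp42 was called only without knockdown array 3 (adjusted p = 0.0294) among the 6 fits with an array left out, and Fgf4 only without knockdown array 1 (0.0473) or knockdown array 3 (0.0229). The part of this shift in the changes of Inhbb and Lefty1 was not tested.

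The calls of Inhbb and Lefty1 held in all 15 other ways of fitting. With each array left out in turn, the log2 fold change of Inhbb lay between 0.65 and 0.75 and its adjusted p between 0.00796 and 0.0233, and that of Lefty1 lay between −0.85 and −0.75 with adjusted p-values from 0.00289 to 0.0135. Lefty2 passed the threshold in 6 of the 15 and Skil in 3, both always with a lower level in the knockdown, and Inhba, Inha, Nodal, Tdgf1 and Fst passed in none of those that tested them.

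**Figure D5:**
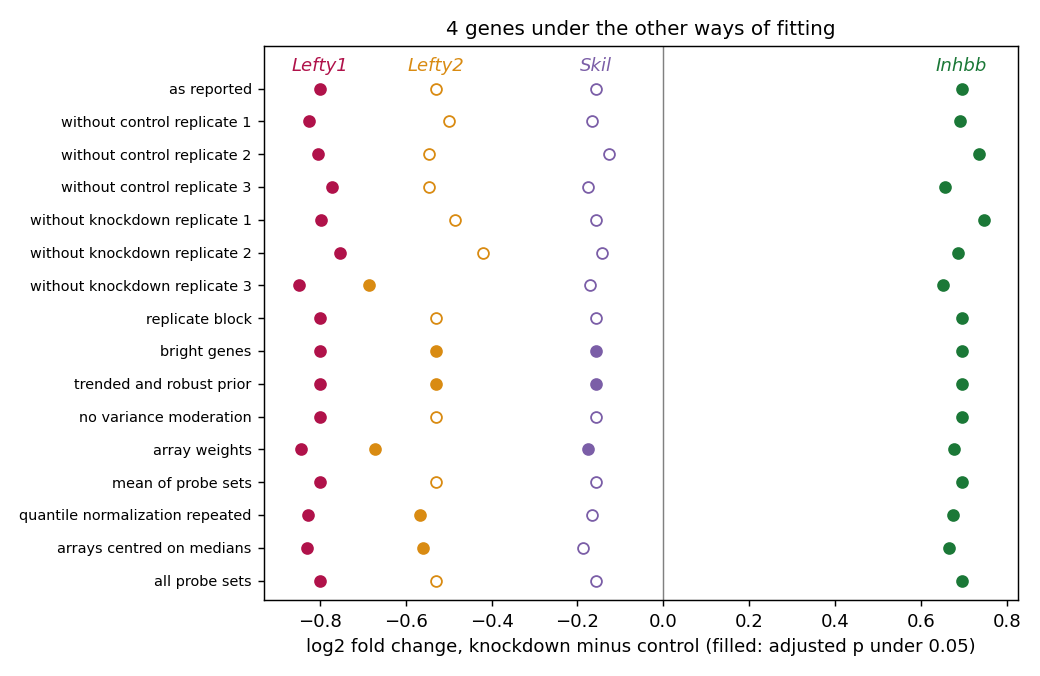
Log2 fold change, knockdown minus control, of Lefty1, Lefty2, Skil and Inhbb in limma as reported and under 15 other ways of fitting, 1 per line; filled points have an adjusted p under 0.05. Lefty1 and Inhbb are filled on every line, while Lefty2 is filled on 6 lines, among them the fit without knockdown array 3 (−0.68), and Skil on 3.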

How the data were processed

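The authors deposited log2 expression values for 34760 probe sets on 6 single-colour Affymetrix arrays. The tools named by the submitters' processing notes are RMA and affy, with their versions and a genome build not given in the sources used here. Since RMA includes background correction and quantile normalization, a change common to most genes cannot be seen. The amplification started from 100 ng of total RNA, per the labels' protocols.

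Names came from the platform annotation in GEO, in which symbols can be old. Of the probe sets, 21640 had 1 gene symbol, 1321 several and 11799 none. Of those with 1 symbol, 21553 matched the RefSeq gene table. Where a gene had several (954 genes), the probe set brightest on average over the 6 arrays stood for it, leaving 19937 genes. No intensity filter was applied.

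A linear model with group as its term was fitted with limma 3.58.1 (R 4.3.3, lmFit and eBayes), with Benjamini-Hochberg adjustment over all 19937 genes and a call at an adjusted p under 0.05. Errors are standard errors of the fit. Exact permutation tests used scipy 1.17.1. The fit was tested on simulated data. The number of arrays limits the precision.

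The 9 genes, the pathway lists and the markers were chosen with earlier results of these data known. Named are all 9 genes, every called pathway gene and up to 2 others per list with the largest moderated statistic, and for each called member the 3 genes closest to it over the 6 arrays, without predicted genes or olfactory and vomeronasal receptors. Foxh1 and the called pluripotency markers were added after their values were seen. Of the listed pathway genes 4 were not analysed here. Alternatives were each array left out, the replicate number as a block, the bright genes, a trended and robust prior, no variance moderation, array weights, the mean of all probe sets, repeated quantile normalization, arrays centred on medians and all probe sets. Upstream windows came from a RefSeq table on GRCm38.p6.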

Additional observations from a re-analysis of the deposited data

How the results depend on the processing

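Inhbb, Lefty1, Nodal, Tdgf1 and Inhba kept their direction and their side of the threshold in every alternative that tested them, as did Trim71. Inhba and Inha fell below the brightness limit and have no value among the bright genes. Lefty2 was called at −0.68 without knockdown array 3, at −0.53 among the bright genes (adjusted p = 0.0231) and with a trended and robust prior (adjusted p = 0.00649), at −0.67 with array weights, at −0.57 after repeated quantile normalization and at −0.56 after median centring. Knockdown array 3 had the lowest array weight, at 0.30 against 0.80 to 2.01 for the other arrays. With each array left out Lefty2 ranged from −0.68 to −0.42. Skil was called at −0.16 among the bright genes (adjusted p = 0.0450) and with a trended and robust prior (adjusted p = 0.0293), and at −0.18 with array weights (adjusted p = 0.0447). Fst changed sign, without a call, to −0.022 when quantile normalization was repeated and −0.023 when arrays were centred on medians, and ranged from −0.035 to 0.041 with each array left out. Inha was at 0.033 with array weights and ranged from −0.099 to 0.060 with each array left out. The members called lower were therefore 3 among the bright genes, with the trended prior and with array weights, 2 with either other scaling, and 1 to 2 with each array left out. Among the bright genes fewer genes were tested. The cause of the other differences was not tested.

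Over all genes, 675 were called higher and 428 lower as reported. The counts were 1080 and 737 among the bright genes and 1213 and 854 with the trended prior. They were 1114 and 1058 with array weights, and 779 and 763 after repeated quantile normalization. Beside this, 4 of the 55 other pathway genes were called higher and 5 lower with the trended prior, and 3 and 6 with array weights. The pathway counts were 2 and 5 after repeated quantile normalization, and 4 and 5 among the bright genes, where only 40 were tested. None was called lower with the replicate block, without moderation or with all probe sets, where 8 were lower at an unadjusted p under 0.05 in each of these limma fits and 5, 6 and 5 higher. With each array left out 0 to 2 were called lower. None was called lower without control array 2, control array 3 or knockdown array 2, where 6, 8 and 7 were lower and 4, 6 and 5 higher at an unadjusted p under 0.05, and 1 without control array 1. Pcsk6 and Bambi also lost their calls with the replicate block, without moderation and with all probe sets. Foxh1 passed among the bright genes (adjusted p = 0.0422) and with the trended prior (0.0179) in limma. It also passed with array weights (0.0103) and after repeated quantile normalization (0.0314). Foxh1 missed the threshold with the replicate block, without moderation, with the mean of probe sets, with arrays centred on medians and with all probe sets.

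Over all genes the higher and lower calls were 1080 and 737 of the bright genes, 1213 and 854 with the trended prior, 271 and 142 without moderation, 1114 and 1058 with array weights, and 266 and 134 over all probe sets. After repeated quantile normalization 763 were lower. With each array left out the higher calls ranged from 148 to 603 and the lower calls from 101 to 699. They were 148 and 101, 179 and 102, and 228 and 137 without control arrays 1, 2 and 3, and 449 and 205, 227 and 117, and 603 and 699 without knockdown arrays 1, 2 and 3. The median log2 fold change of all genes was 0.0048 as reported. It changed sign to −0.0148 after repeated quantile normalization and to −0.0255 with arrays centred on their medians. The labels do not say whether a replicate number marks arrays that belong together. The correlations of same-numbered deviations from the group means were −0.017, −0.150 and −0.241, and no array correlated best with its own number. With 3 arrays a group these correlations cannot show whether the arrays were paired. With the replicate number as a block, 171 genes were higher and 108 lower, and Inhbb (adjusted p = 0.0277) and Lefty1 (adjusted p = 0.0206) stayed called. With 3 arrays a group, small changes of dim genes such as Inhba and Inha are poorly measured.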
